A study of Danio rerio with 3 samples.

Results

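The genes described here are matrix metalloproteases and their inhibitors of the TIMP family, chosen by name: mmp2, mmp9, mmp11a, mmp11b, mmp13a, mmp14a, mmp14b, mmp15b, timp2a and timp2b. All 10 names were found, and they stand for 11 of the 27882 Ensembl gene identifiers in the deposited tables. Most of these identifiers carry a capital, human-style name without the paralog letter. MMP14, MMP15 and TIMP2 each name 2 identifiers, which cannot be assigned to the a or b paralog. Both MMP15 identifiers are therefore included, although only mmp15b was sought. The copies are told apart here by the length of their longest transcript. The longer MMP14 copy is ENSDARG00000008388 (4473 bases) and the shorter is ENSDARG00000002235 (3507 bases). The longer MMP15 copy is ENSDARG00000051962 (5785 bases) and the shorter is ENSDARG00000013072 (1968 bases). The longer TIMP2 copy is ENSDARG00000061226 (3108 bases) and the shorter is ENSDARG00000075261 (2937 bases).

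RNA of whole zebrafish larvae of the AB background was sequenced at 3 days post-fertilization, in 1 library per group. The HRAS larvae carried the driver Tg(fli1ep:GAL4FF)ubs3 together with Tg(UAS:eGFP-HRASV12)io006, so that an endothelial fli1 promoter drove an eGFP fusion of oncogenic HRAS. The NICD larvae had this driver and tg(UAS:NICD)kca3, which encodes the active intracellular domain of Notch. The control larvae were wild type, with no driver named, so the driver and either transgene cannot be told apart against the control. How many larvae made up a library is not stated in the labels. The libraries held 41105619 (HRAS), 21944303 (NICD) and 26384466 (control) corrected reads, and their unique shares lay between 50.3% and 51.0%. Identifiers of the fixed markers of muscle, liver, pancreas, eye, brain, blood and heart, 17 in all, had reads in all 3 libraries. With 1 library in each group there is no replicate check, no p-value was computed, and each difference is one between libraries.

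Matrix metalloproteases are zinc-dependent enzymes that cut collagens and other proteins outside the cell, and they are made as inactive proenzymes. MMP2 and MMP9 are gelatinases, MMP13 is a collagenase, and MMP14 and MMP15 are anchored in the cell membrane. MMP14 activates pro-MMP2 with TIMP2 as a bridge, while an excess of TIMP2 blocks the enzymes. In zebrafish larvae, mmp9 and mmp13a are known from myeloid cells and from injured tissue.

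MMP9 and mmp13a were the members that differed most between libraries, and the HRAS library was highest and the control lowest for both. Of the 11 identifiers, 4 were higher and 0 lower in HRAS larvae than in control larvae: MMP9, mmp13a, the longer MMP14 copy and the shorter TIMP2 copy. The NICD library had 2 higher than in the control, MMP9 and mmp13a, and 0 lower. To be called, a gene needed 50 or more reads over both libraries compared, a ratio of 2-fold or more after TMM scaling and the addition of 0.5 reads, and an exact conditional binomial 95% interval clear of 1. All 11 identifiers passed the minimum in every comparison. Over all genes tested, 6.09% were called higher and 4.14% lower in HRAS against control, and 3.56% higher and 3.12% lower in NICD against control. The members were chosen with earlier results of these data known, so setting their counts beside these shares is no test. Brackets give the binomial interval, which holds counting error alone. In RNA of whole larvae, a change in the number of cells that make a transcript and a change in transcript per cell cannot be told apart.

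The gelatinase gene MMP9 had 6267 corrected reads in the HRAS library, 1164 in the NICD library and 338 in the control. Its level, scaled to transcript length and library size (RPKM), was 54.7 in HRAS, 19.0 in NICD and 4.60 in the control. The fold was 11.8 [10.6 to 13.2] for HRAS against control and 4.09 [3.62 to 4.64] for NICD against control. At least 94.9% of its reads were unique in each library, so the fold did not rest on reads shared with other transcripts. Among genes tested, MMP9 ranked 59 from the highest ratio of 20873 in HRAS against control and 126 of 20061 in NICD against control.

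The collagenase gene mmp13a had 3178 corrected reads in HRAS, 466 in NICD and 237 in the control. Its level was 46.6 RPKM in HRAS, 12.8 RPKM in NICD and 5.42 RPKM in the control. The fold was 8.54 [7.5 to 9.81] for HRAS against control and 2.34 [1.99 to 2.74] for NICD against control. Here most reads were not unique, in a gene with 3 annotated transcripts, and reads shared among transcripts of the same gene are included in the non-unique ones. The unique reads alone numbered 486 in HRAS, 81 in NICD and 38 in the control, and gave folds of 8.13 and 2.50. The gene was thus called in the same direction on either kind of read.

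The membrane proteases differed between copies. The longer MMP14 copy had 8571 reads in HRAS, 2219 in NICD and 2639 in the control, and nearly all were unique. Its level was 46.6 RPKM in HRAS, against 22.6 RPKM in NICD and 22.4 RPKM in the control. The HRAS library stood apart, with a fold of 2.07 [1.98 to 2.17] against the control, while NICD against control gave 1.0 [0.944 to 1.06]. The first of these intervals reaches below the 2-fold limit.

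The shorter MMP14 copy had 3507 reads in HRAS, 2056 in NICD and 2189 in the control, or 24.3, 26.7 and 23.7 RPKM. Its folds were 1.02 [0.969 to 1.08] for HRAS against control and 1.12 [1.05 to 1.19] for NICD against control, and neither was called. Both copies stood at similar levels in the control, where their RPKM intervals overlapped.

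The MMP15 copies were not called in any comparison. The longer copy had 3632 reads in HRAS, 1448 in NICD and 1722 in the control, with folds of 1.35 [1.27 to 1.43] for HRAS and 1.0 [0.932 to 1.07] for NICD against control. The shorter copy had 771, 297 and 322 reads in HRAS, NICD and control, with folds of 1.53 [1.34 to 1.75] and 1.1 [0.934 to 1.29]. The number of members called is therefore the same whichever of these copies is mmp15b.

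MMP2, the other gelatinase and the substrate of MMP14, had the highest level of all members in each library. It had 10052 reads in HRAS, 4985 in NICD and 5547 in the control, all of them unique. Its level was 80.6 RPKM in HRAS, 74.9 RPKM in NICD and 69.3 RPKM in the control. The folds of 1.16 [1.12 to 1.2] and 1.07 [1.03 to 1.11] against the control excluded 1 by counting error but lay far under the 2-fold limit.

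The genes of the MMP11 family, enzymes that are activated by furin inside the cell, were the members whose values lay under the control in both transgenic libraries. MMP11 had 329 reads in HRAS, 179 in NICD and 353 in the control, all unique, or 4.95, 5.04 and 8.27 RPKM. Its folds were 0.595 [0.51 to 0.693] and 0.604 [0.501 to 0.724], short of the limit for a lower call. For mmp11b the folds were 0.8 [0.712 to 0.899] and 0.808 [0.704 to 0.926], on 653, 354 and 521 reads. No more than 3.37% of the reads of mmp11b were unique in any library, in a gene with 2 transcripts.

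**Figure D1:**
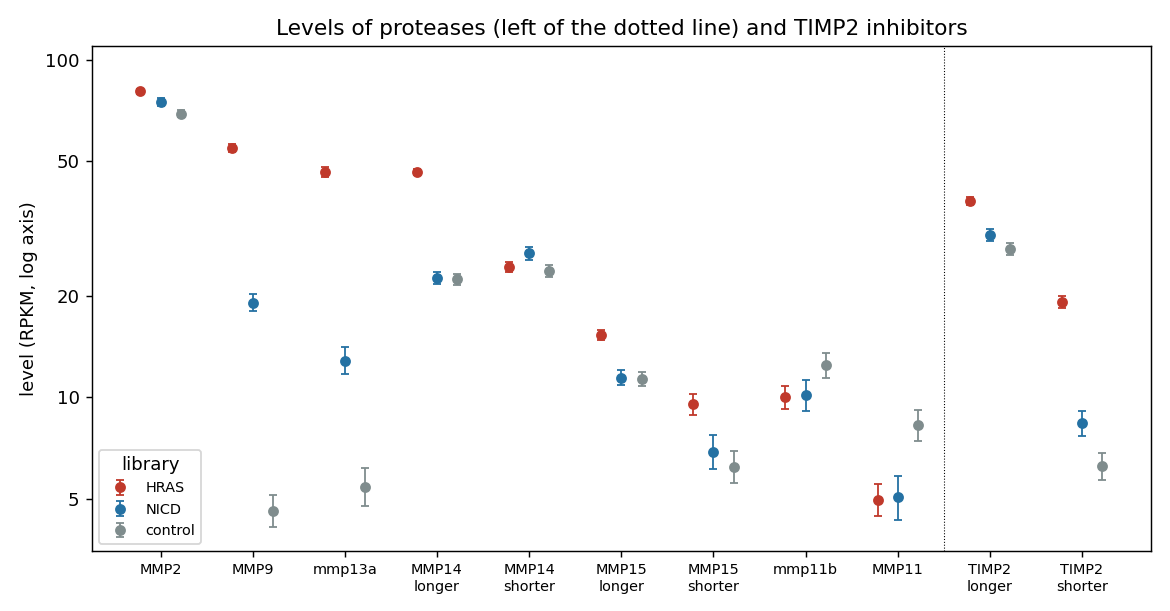
Level in RPKM (log axis) of the 11 member identifiers in the HRAS, NICD and control libraries, 1 point per library. Bars are exact Poisson 95% intervals of the corrected reads and cover counting error only; MMP9 and mmp13a separate the 3 libraries most, while MMP2 is highest in each of them.

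The inhibitor genes also differed between copies. The shorter TIMP2 copy had 2311 reads in HRAS, 538 in NICD and 483 in the control, or 19.1, 8.36 and 6.23 RPKM. Its fold was 3.05 [2.77 to 3.38] for HRAS against control, and 1.32 [1.17 to 1.5], not called, for NICD against control. The longer TIMP2 copy had 4870, 2063 and 2252 reads in HRAS, NICD and control, or 38.1, 30.2 and 27.5 RPKM. This copy was not called, at 1.38 [1.31 to 1.45] for HRAS and 1.09 [1.03 to 1.16] for NICD against control. In each library the longer copy was the more abundant.

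The direct comparison sets the transgenic libraries, which carry the same driver, side by side. The same 4 identifiers that were called against the control were higher in HRAS than in NICD and 0 were lower, where 5.15% of 20856 genes tested were called higher and 6.19% lower. MMP9 was 2.89-fold higher [2.71 to 3.08], mmp13a 3.66-fold [3.32 to 4.04], the longer MMP14 copy 2.07-fold [1.98 to 2.17] and the shorter TIMP2 copy 2.30-fold [2.10 to 2.54]. MMP11 and mmp11b stood at 0.985 [0.82 to 1.19] and 0.99 [0.869 to 1.13] in HRAS against NICD. These comparisons share libraries, and their values are given side by side without a test of agreement.

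**Figure D2:**
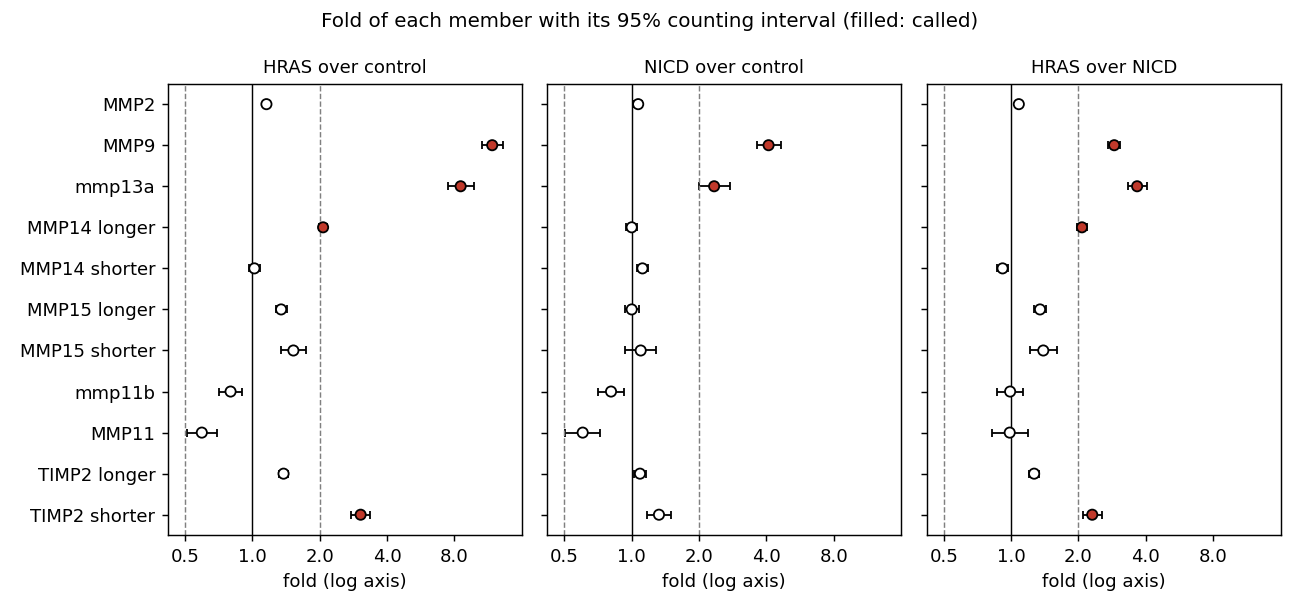
Fold (log axis) of each member for HRAS over control, NICD over control and HRAS over NICD, with its exact conditional binomial 95% counting interval. Filled points were called by the 2-fold rule, whose limits are dashed; 4, 2 and 4 points are filled, all of them above 1.

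Over the 9 protease identifiers the log2 ratios had medians of 0.43 for HRAS and 0.10 for NICD against control. Over all 11 identifiers it was 0.47 and 0.12, where the median of all genes tested was 0.00 and 0.03. In HRAS against NICD the median of the 11 was 0.43, and that of all genes 0.01. In HRAS against control the intervals of 8 of the 11 lay above 1 and those of 2 below 1, where 6577 and 6434 of all 20873 genes tested did so. In NICD against control 6 of the 11 lay above 1 and 2 below, beside 6184 and 5180 of 20061 genes. An interval narrows as reads increase, so these counts depend on the reads of a gene as well as on its ratio.

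The makeup of the protease transcripts differed between libraries. Summed over the 9 protease identifiers, the level was 292.7 RPKM in HRAS, 189.5 RPKM in NICD and 163.5 RPKM in the control. MMP9 and mmp13a together made up 34.6% of this sum in HRAS, 16.8% in NICD and 6.13% in the control. MMP2 made up 27.5% in HRAS, 39.5% in NICD and 42.4% in the control.

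The summed level of the TIMP2 copies was 57.3 RPKM in HRAS, 38.6 RPKM in NICD and 33.7 RPKM in the control. The ratio of summed protease to summed TIMP2 level was 5.11 in HRAS, 4.91 in NICD and 4.85 in the control. Without MMP9 and mmp13a this ratio was 3.34 in HRAS, 4.08 in NICD and 4.56 in the control. The ratios lay close together with both genes and apart without them. Both genes were the members with the largest folds in these same libraries, so leaving them out had to lower the HRAS ratio most. The ratios count no inhibitor other than TIMP2. The names timp1, timp3, a2m and those of timp4 were not matched. The inhibitors RECK and a2ml, left out here, summed to 109.2 RPKM in HRAS, 107.0 RPKM in NICD and 158.6 RPKM in the control. Unlike TIMP2 they were highest in the control, so the ratios depend on which inhibitors are counted. They are ratios of transcript levels and say nothing of the amount or activity of the proteins.

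**Figure D3:**
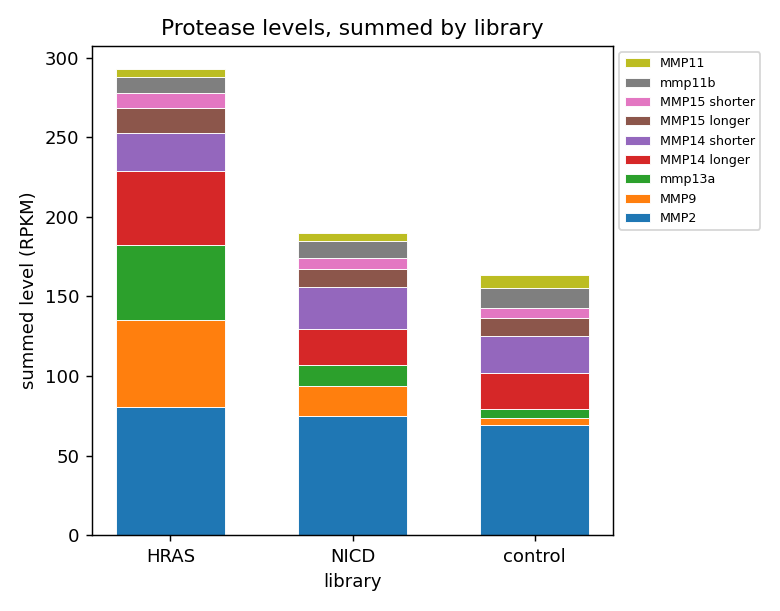
Summed RPKM of the 9 protease identifiers in each library, split by gene. The total is 292.7 in HRAS, 189.5 in NICD and 163.5 in the control, and the segments of MMP9, mmp13a and the longer MMP14 copy differ most.

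The order of levels within a library changed as well. In the HRAS library MMP2 came first, then MMP9, and then mmp13a and the longer MMP14 copy, whose intervals overlapped at 46.6 RPKM each. In the NICD library the longer TIMP2 copy came after MMP2, then the shorter and the longer MMP14 copy, and then MMP9 and mmp13a. In the control the longer TIMP2 copy came after MMP2, and mmp13a and MMP9 stood last, with overlapping intervals of 4.75 to 6.15 and 4.12 to 5.12 RPKM.

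Other metalloproteases were also measured. Of 12 further identifiers of the family, 8 passed the minimum of reads in each comparison. In HRAS against control 1 was higher and 0 lower, and the log2 ratios had a median of -0.17. In NICD against control none of the 8 was called, with a median of 0.29. The one called higher in HRAS was mmp30, a metalloprotease of fish, with 1828 reads in HRAS, 484 in NICD and 486 in the control. Its level of 26.4 RPKM in HRAS, 13.1 RPKM in NICD and 10.9 RPKM in the control lay within the range of the members. The fold was 2.40 [2.17 to 2.66] for HRAS against control and 1.18 [1.04 to 1.35] for NICD against control.

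Between the transgenic libraries, mmp30 was 2.03-fold higher in HRAS [1.83 to 2.25] and mmp25b, a protease anchored by a lipid in mammals, 2.05-fold [1.59 to 2.70]. The reads of mmp25b numbered 284 in HRAS, 74 in NICD and 150 in the control. MMP16, a membrane protease, stood at 0.342 [0.278 to 0.418] of its NICD level in HRAS, on 159 reads in HRAS, 250 in NICD and 194 in the control. MMP24, mmp23bb, MMP23B, MMP28 and MMP17 passed the minimum and were not called in any comparison. MMP19, mmp20a, mmp20b and mmp25a had at most 20 reads in any library.

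Among inhibitors outside the TIMP family, RECK, a membrane-anchored inhibitor of metalloproteases, was not called. Its reads were counted on 1 annotated transcript of only 387 bases. RECK had 676 reads in HRAS, 453 in NICD and 380 in the control, with folds of 1.14 [1.0 to 1.29] and 1.42 [1.23 to 1.63] against the control. The gene a2ml, of the alpha-2-macroglobulin family of protease traps, had 12436 reads in HRAS, 5335 in NICD and 14530 in the control. It stood at 0.546 [0.533 to 0.56] of the control level in HRAS, not called, and at 0.437 [0.423 to 0.45] in NICD, called lower. Only 40.7% of its control reads were unique, and the labels do not state how reads were split between near copies.

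**Figure D4:**
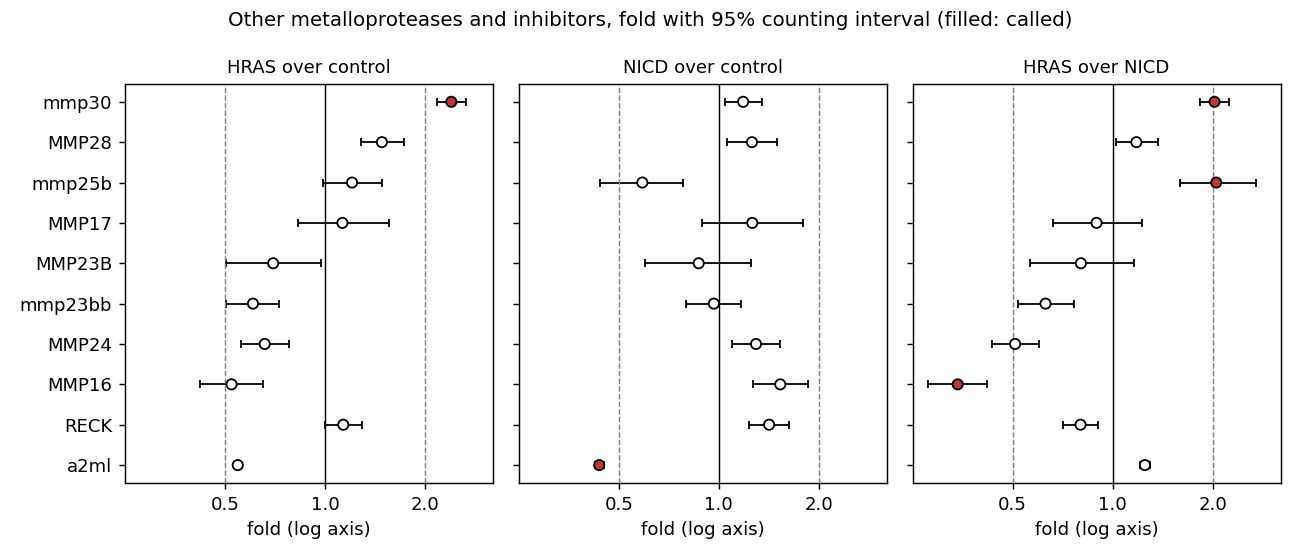
Fold (log axis) of 8 other metalloproteases and the inhibitors RECK and a2ml in the 3 comparisons, with 95% counting intervals. Filled points were called by the 2-fold rule (dashed limits): mmp30 is called higher in HRAS over control and in HRAS over NICD, mmp25b higher and MMP16 lower in HRAS over NICD, and a2ml lower in NICD over control.

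Related proteases included adam8a, whose ratio in HRAS against control was close to that of MMP9. Of 25 identifiers of ADAM and ADAMTS proteases, 5 were higher and 1 lower in HRAS against control, and 2 higher and 0 lower in NICD against control. The gene adam8a, a membrane protease known from leukocytes in mammals, had 3299 reads in HRAS, 271 in NICD and 162 in the control. Its folds were 13.0 [11.1 to 15.3] for HRAS and 1.99 [1.63 to 2.43] for NICD against control, the second just under the limit. Its paralog adam8b stood at 4.14 [3.35 to 5.19] and 2.07 [1.61 to 2.69].

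One of the ADAMTS8 identifiers, ENSDARG00000007709, had folds of 4.92 [3.83 to 6.49] for HRAS and 3.13 [2.36 to 4.23] for NICD against control. ADAM12 and adam28 were 2.56-fold [2.01 to 3.31] and 2.18-fold [1.85 to 2.59] higher in HRAS than in the control. ADAMTS18 was lower, at 0.451 [0.387 to 0.526], and few of its reads were unique. In HRAS against NICD, adam8a was 6.52-fold [5.77 to 7.42] and ADAM12 2.01-fold [1.59 to 2.58] higher, and none of the 25 was lower.

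The plasminogen system, whose protease plasmin activates metalloproteases, had 12 of 13 identifiers above the minimum against the control. PLG, the gene for plasminogen, had 4284 reads in HRAS, 2108 in NICD and 2408 in the control, and stood at 1.14 [1.08 to 1.19] in HRAS against control. In HRAS against NICD serpinf2a, an inhibitor of plasmin, was lower, at 0.495 [0.415 to 0.59]. Its paralog serpinf2b, more abundant at 26.4 RPKM beside 3.37 RPKM in HRAS, stood at 1.03 [0.95 to 1.11] there. No more than 21.0% of the reads of either copy were unique in these libraries. Neither FURIN copy, a protease that activates metalloproteases inside the cell, was called in any comparison.

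The substrates of these enzymes included 30 identifiers of collagens and other matrix proteins. In HRAS against control 1 was higher and 1 lower, with a median log2 ratio of -0.21. The higher one was the fibronectin copy FN1 ENSDARG00000006526, at 3.42-fold [3.36 to 3.49], and at most 263 of its reads were unique in a library. The lower one was the cartilage collagen copy COL2A1 ENSDARG00000069093, at 0.387 [0.383 to 0.39]. In NICD against control none was called, and the median was 0.12.

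In HRAS against NICD, 1 of the 30 was higher and 4 were lower. The lower ones were both COL2A1 copies, COL9A1 and COL11A1, all collagens of cartilage, at 0.265 to 0.487 of the NICD level. The fixed cartilage markers, which hold COL2A1 and COL9A1 too, summed to 736.6 RPKM in HRAS, 1927 RPKM in NICD and 1333 RPKM in the control. Of these sums COL2A1 ENSDARG00000069093 alone made up 248.6, 942.1 and 639.5 RPKM, so they are not a measure of cartilage separate from the collagens. Among the cartilage markers that are not collagens, acana stood at 0.305 [0.286 to 0.325] in HRAS against NICD and was called lower. MATN1, acanb, snorc and both SOX9 copies stood at 0.512 to 0.685 there and were not called. The part of cartilage in these collagen values was not tested.

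AP-1 transcription factors are known to bind the promoters of mammalian MMP9 and MMP13. Of 11 identifiers 8 passed the minimum against the control, with 5 higher and 0 lower in HRAS and 4 higher and 0 lower in NICD. Over all genes tested, 6.09% were called higher in HRAS and 3.56% in NICD against control. This list too was chosen with earlier results of these data known. FOSL1 stood at 9.66 [7.59 to 12.7] for HRAS and 2.77 [2.08 to 3.77] for NICD against control. JUNB stood at 3.82 [3.33 to 4.41] and 2.55 [2.19 to 2.99], and FOSL2 at 3.41 [3.12 to 3.74] and 2.22 [2.0 to 2.46]. ATF3 was the other one called in both, and FOSB was called in HRAS, at 2.57 [2.0 to 3.37]. The median log2 ratio of the 8 was 1.40 in HRAS and 0.94 in NICD. Promoters were not searched for AP-1 sites, and the part of AP-1 factors in the values of MMP9 and mmp13a was not tested.

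Markers of cells that can make these enzymes also differed between libraries. Neutrophil markers summed to 143.0 RPKM in HRAS, 144.5 RPKM in NICD and 77.4 RPKM in the control, over 6 identifiers. Of the 4 above the minimum, 2 were higher in HRAS than in the control and 0 were called in NICD. One of them was npsn, a protease of neutrophil granules in fish, at 4.2 [3.86 to 4.58] for HRAS and 1.44 [1.29 to 1.6] for NICD against control. The other was CSF3R, a receptor of granulocyte growth factor, at 2.11 [1.55 to 2.94] and 1.88 [1.32 to 2.71]. It had 176 reads in HRAS, 84 in NICD and 53 in the control, and stood at 1.12 [0.862 to 1.48] in HRAS against NICD. In HRAS against NICD, 2 of the 5 tested were called higher and 0 lower. These were npsn, at 2.92 [2.70 to 3.16], and cxcr1, at 4.0 [1.8 to 12.3] on 48 and 6 reads. The lysozyme gene lyz, the most abundant marker of this list in NICD and the control, had 65.7 RPKM in HRAS, 114.2 RPKM in NICD and 57.3 RPKM in the control. It stood at 1.14 for HRAS and 1.97 for NICD against control, and at 0.579 for HRAS against NICD, not called. NCF1, a subunit of the phagocyte oxidase, stood at 1.12 and 1.74 against the control and at 0.647 for HRAS against NICD, not called. These last markers, lyz and NCF1, were named after their values had been seen. The neutrophil peroxidase gene mpx was not matched, cxcr1 was at 0 in the control, and another identifier, named CXCR1, was at 0 in NICD.

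Macrophage markers, over 20 identifiers, summed to 122.3 RPKM in HRAS, 68.0 RPKM in NICD and 52.1 RPKM in the control. Of these 8 of 16 tested were higher and 0 lower in HRAS against control, and 1 of 14 was higher and 1 lower in NICD against control. The largest folds called in HRAS against control were those of 2 MFAP4 identifiers and LCP1. MFAP4 ENSDARG00000038683 stood at 7.45 on 52 and 4 reads, MFAP4 ENSDARG00000090557 at 3.91 and LCP1 at 3.82. In HRAS against NICD 9 of 16 were higher and 1 lower. The lower one, MPEG1 ENSDARG00000043093, stood at 0.331, on 505 reads in HRAS, 820 in NICD and 186 in the control. It was the one higher in NICD against control, at 5.23. The copy ENSDARG00000055290, named after its values had been seen, stood at 2.56 in HRAS against NICD, on 684, 143 and 181 reads. A further MPEG1 identifier, ENSDARG00000078569, had 2 reads in HRAS and was at 0 in NICD and the control. The gene c1qa was called higher in HRAS against control, at 2.91 on 52 and 11 reads. The gene c1qb was at 0 in NICD, and c1qc was at 0 in HRAS and NICD, and neither had more than 8 reads in any library.

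Markers of the endothelium, in which the driver is active, summed to 142.1 RPKM in HRAS, 50.5 RPKM in NICD and 46.7 RPKM in the control, with 8 of 9 higher in HRAS against control and 0 of 9 called in NICD. Epidermis markers summed to 9665 RPKM in HRAS, 7487 RPKM in NICD and 8895 RPKM in the control, and none of 8 was called against the control. Most of each sum was krt4, at 6890, 5319 and 6486 RPKM. The median log2 ratio of the 8 was 0.45 in HRAS and 0.05 in NICD against control. In HRAS against control the intervals of 7 lay above 1 and that of 1 below. The part of these cell types in the values of MMP9, mmp13a, MMP14 and TIMP2 was not tested.

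**Figure D5:**
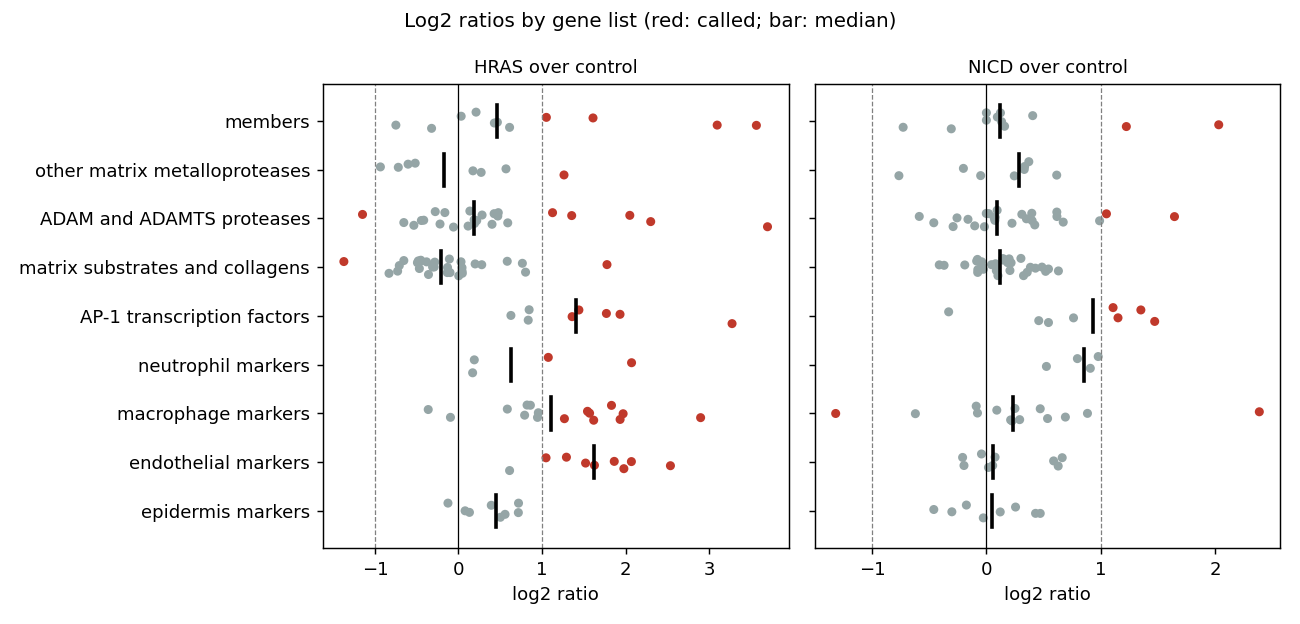
Log2 ratio of each gene above the minimum of reads, by list, for HRAS over control (left) and NICD over control (right). Red points were called by the 2-fold rule, dashed lines are the 2-fold limits and black bars are list medians. In HRAS over control the medians of the AP-1, macrophage and endothelial lists lie at 1.40, 1.11 and 1.63. Those of the members and of the epidermis list lie at 0.47 and 0.45.

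Genes outside these lists with the pattern most like MMP9 were sought among 14233 named identifiers with at least 200 reads over the 3 libraries. The measure was the distance between pairs of log2 ratios against the control, which both rest on the same control library. The nearest was igfbp1b, a binding protein of insulin-like growth factors, at a distance of 0.33. It had 945 reads in HRAS, 167 in NICD and 58 in the control, and folds of 10.3 and 3.40. An identifier named ALOX5, the 5-lipoxygenase of leukotriene synthesis, followed at a distance of 0.46, on 270, 68 and 14 reads. The others were KCNJ1 ENSDARG00000090635, a potassium channel gene, the prolactin gene prl and si:ch211-114l13.11.

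The nearest to mmp13a were lcp2a, an adaptor of immune receptors in mammals, and si:dkey-27h10.2, at distances of 0.099 and 0.105. They had folds of 8.52 and 7.97 for HRAS and 2.50 and 2.29 for NICD against control, on 14 and 19 control reads. The gene prl came next, followed by SH3TC1 and the aminopeptidase gene anpepla. With 3 libraries such likeness is a description of these libraries.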

How the data were processed

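Per the series' design text, an Illumina HiSeq 2000 was used, and CLC bio Assembly Cell (3.2) assigned reads to predicted cDNAs of Ensembl release 63 on Zv9. The submitters' processing notes also name CASAVA 1.8. Mapping settings and use of strand are not stated there. The authors deposited, per gene, counts of unique and non-unique reads, per the file headers. The authors also deposited corrected total reads, an expected count in whole numbers that adds a share of the non-unique reads, and RPKM, which was recomputed to within 0.268% for genes with at least 200 reads.

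TMM factors from edgeR 4.0.16 in R 4.3.3, over all identifiers, scaled the corrected reads, and were 1.0 for HRAS, 1.01 for NICD and 0.994 for the control. Ratios were taken after adding 0.5 reads. Intervals are exact conditional binomial (folds) or exact Poisson (RPKM), at 95%, and cover counting error only, and reads lacked molecular identifiers, so they need not be separate molecules. The calculation was tested on simulated counts. Genes named are all members, every further metalloprotease and inhibitor with at least 50 reads, up to 3 called genes of each other list with the largest ratio, and the 5 genes nearest in pattern to MMP9 and to mmp13a. The text leaves out some genes the rule selects, and 1 gene of the lists is not reported here. Members and lists were chosen with earlier results of these data known. Symbols were matched through a table of gene names, with case ignored and the paralog letter optional. Coordinates were not used. The labels give no batch or date. Alternatives were 3 other scalings (total reads, DESeq2 1.42.0 size factors, upper quartile), the deposited RPKM, unique reads, 5 reads added, minimums of 10, 200 or no reads, 1.5-fold and 4-fold limits, and thinning to the smallest library.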

Additional observations from a re-analysis of the deposited data

How the results depend on the processing

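Under the 12 alternatives, 386 of 396 recomputed folds of members gave the call reported, and none of the called folds changed direction. The other 10 all came from another fold limit. The minimum of reads and the fold limit do not enter the fold, so no direction could change under those alternatives. Every member also had enough reads for each minimum tried, so calls could not change there. With a 4-fold limit 2 members were called in HRAS against control, 1 in NICD against control and 0 in HRAS against NICD. Over all genes tested, that limit called 291 higher and 134 lower of 20873 in HRAS against control. It called 132 and 116 of 20061 in NICD against control, and 237 and 152 of 20856 in HRAS against NICD. With a 1.5-fold limit 6 were called in HRAS against control, MMP11 as lower and the shorter MMP15 copy as higher among them, 3 in NICD against control and 4 in HRAS against NICD. Over all genes tested, the 1.5-fold limit called 2709 higher and 2274 lower of 20873 in HRAS against control. It called 2133 and 1577 of 20061 in NICD against control, and 2310 and 2957 of 20856 in HRAS against NICD. Under the other scalings, minimums, added reads, thinning, RPKM and unique reads the counts of members called were 4, 2 and 4, as reported. On unique reads 10 of the 11 identifiers passed the minimum, and 3 folds left their counting interval: mmp11b at 0.681 in NICD against control and at 1.29 in HRAS against NICD, and mmp13a at 3.25 in HRAS against NICD. On unique reads fewer macrophage and endothelial markers passed the minimum, and in HRAS against control 4 of 10 macrophage and 5 of 7 endothelial markers were called, where corrected reads gave 8 of 16 and 8 of 9. Of 8 epidermis markers 1 was called higher there on unique reads, and 0 on corrected reads. With 5 reads added, 1 of 4 neutrophil markers was called in HRAS against control, where 2 are reported above. No paired analysis was possible because each group has 1 library.

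Depth limits the low genes: a floor of 3 reads corresponds, for a transcript of 2 kilobases, to 0.0365 RPKM in HRAS, 0.0684 RPKM in NICD and 0.0569 RPKM in the control. The spread between larvae is not in any interval.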

Other observations

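Genes of osteoclasts, cells that also break down matrix, and of bone were measured by 8 identifiers outside the comparisons above. CTSK, a cysteine protease of osteoclasts in mammals, had 3706 reads in HRAS, 1008 in NICD and 1192 in the control, all unique, and levels of 55.0 RPKM in HRAS, 28.0 RPKM in NICD and 27.6 RPKM in the control. Its fold of 1.98 [1.86 to 2.12] for HRAS against control fell just short of the 2-fold limit, and NICD against control gave 1.01 [0.924 to 1.09]. ACP5, a phosphatase of osteoclasts, had 179 reads in HRAS, 23 in NICD and 137 in the control, and was called lower in NICD, at 0.203 [0.122 to 0.312]. Of the 7 identifiers tested in HRAS against control 1 was higher and 0 lower, with a median log2 ratio of -0.20, and of the 6 tested in NICD against control 1 was higher and 1 lower. The one higher in HRAS, RUNX2, had 50 reads in HRAS and 7 in the control, none of them unique. The one higher in NICD was runx2b, on 218 reads in HRAS, 282 in NICD and 160 in the control. It stood at 2.09 [1.72 to 2.56] for NICD and 0.869 [0.706 to 1.07] for HRAS against control. In HRAS against NICD 2 of the 7 tested were higher and 1 lower, and runx2b was the lower one, at 0.415 [0.346 to 0.497].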
